A study of Danio rerio with 12 samples.

Results

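The cytosolic ribosomal proteins are the protein parts of the ribosomes that translate nuclear-encoded mRNA. Their genes were followed through the first week after amputation of the zebrafish ventricle tip, with and without the dioxin TCDD. A gene was taken as a member when its probe set carried a single symbol starting with rplp, or with rpl or rps followed by a digit, and the rps6k kinases, which phosphorylate a ribosomal protein and are not part of the ribosome, were left out. This gave 73 of the 8793 named genes on the array, with 78 of 15502 probe sets, and each gene is described by its brightest probe set. Of the 73, 24 encode proteins of the small (40S) subunit and 40 encode proteins of the large (60S) subunit. The rest encode the stalk proteins or carry paralogue names, apart from rps19bp1, which entered through its symbol but encodes a binding partner of a ribosomal protein. The genes rplp1, rplp2l and rpl41 are not analysed here.

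The samples were apex pieces of ventricles from adult zebrafish of the AB strain. Control fish had no TCDD. Their labels give the treatment as none while the protocol describes a vehicle injection, and TCDD fish received 70 ng/g by intraperitoneal injection 1 day before surgery. Unamputated hearts stand for time 0 (0 hpa) in each treatment, and amputated ones were collected at 6 hours (6 hpa) or 7 days (7 dpa), with 2 arrays in each of the 6 groups. Each array carried RNA pooled from 10 hearts, and after surgery the piece held the amputation plane and the regenerate. Nothing in the labels says that the pools of a group came from separate clutches or days, so p-values measure only the spread between these pools.

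A ribosome is built from nearly all of these proteins, and in vertebrates their mRNAs are among the most abundant in any growing cell. Many carry a terminal oligopyrimidine tract at the 5' end, through which the mTOR pathway regulates their translation as a group, so mRNA level and protein output can differ. Some members have a further role. The acidic stalk proteins Rplp0, Rplp1 and Rplp2 recruit elongation factors, and Rpl5 and Rpl11 bind the 5S rRNA and, when free, block the p53 inhibitor Mdm2 in mammalian cells. A few have paralogues, such as Rpl22 and Rpl22l1, which can replace each other in the ribosome in mice.

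On every array 70 or 71 of the 73 members lay above the 95th percentile of all probe sets, and the median member had a log2 intensity between 10.73 and 11.37. The brightest probe sets of an array therefore include most of this list. Differences between members in intensity also reflect their probes, so only differences of the same gene between arrays are read here. The 2 arrays of a group correlated at 0.958 or more over all probe sets in 5 of the groups and at 0.901 for TCDD 6 hpa. In that group replicate 1 stood apart: the brightest 1% of its probe sets began at a log2 intensity of 9.88, while on the other arrays they began at 10.41 to 10.64, and its actin 3' minus 5' signal, a measure of RNA or cRNA length, was 3.35, against -0.08 to 2.07 elsewhere. Over the members, the median of the difference of replicate 1 from replicate 2 was -0.44. The array also widens the spread that all comparisons share.

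As a group, the members lay higher at 7 dpa than at 0 hpa in control ventricles, by a small amount per gene, and no single member passed the test. Relative to the mean of the 2 control 0 hpa arrays, the median member stood at 0.02 and -0.02 on those arrays themselves. It stood at 0.10 and 0.00 at control 6 hpa and at 0.24 and 0.31 at control 7 dpa. After TCDD the corresponding values were -0.12 and 0.03 at 0 hpa, -0.17 and 0.20 at 6 hpa, and 0.01 and 0.19 at 7 dpa. Both control 7 dpa arrays were thus above the other 10 arrays, while the TCDD 7 dpa arrays lay within the range of the TCDD 6 hpa arrays. The number of members above their control 0 hpa mean was 66 of 73 on both control 7 dpa arrays. It was 37 and 60 on the TCDD 7 dpa arrays.

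**Figure D1:**
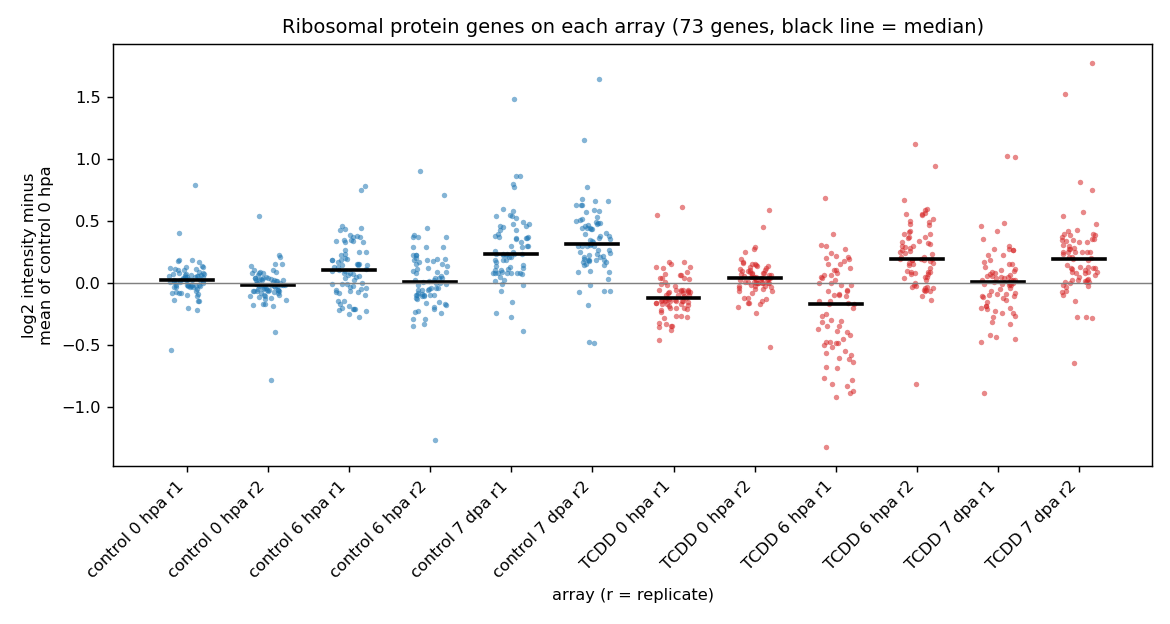
Log2 intensity of each of the 73 members on each of the 12 arrays, minus that gene's mean over both control 0 hpa arrays; points are genes and bars are medians. The medians of the control 7 dpa arrays, 0.24 and 0.31, are the highest, and TCDD 6 hpa replicate 1 has the lowest median, -0.17, and the widest spread.

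At 6 hpa in control ventricles the list was centred near 0. The median log2 difference from 0 hpa was 0.04, against 0.02 over all probe sets, with 46 members above 0, beside 54.2% of all probe sets, and 27 below. No member was called in limma at an adjusted p below 0.05, while 0.477% of all probe sets were; 1 member had an unadjusted p below 0.05, beside 10.2%. In 23 members both 6 hpa arrays lay above both 0 hpa arrays and in 11 they lay below, beside 22% and 22.1% of all probe sets. The median was 0.15 after quantile normalization, against 0.01 over all probe sets.

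After TCDD the 6 hpa difference from 0 hpa had a median of 0.07, against 0.06 over all probe sets, with 41 members above 0, beside 57.7% of all probe sets, and 32 below. None of the members was called, beside 1.88% of all probe sets, and 8 had an unadjusted p below 0.05, beside 17.2%. In 20 members both 6 hpa arrays lay above both 0 hpa arrays and in 5 below, beside 25.4% and 20.8% of all probe sets. The median was 0.23 without TCDD 6 hpa replicate 1 and -0.13 without replicate 2, so the 2 arrays gave opposite directions.

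At 7 dpa in control ventricles the median difference from 0 hpa was 0.31, a 1.24-fold higher intensity, against -0.03 over all probe sets. Of the 73 members 69 were above 0, beside 45.6% of all probe sets, and 4 were below. In 57 members both 7 dpa arrays lay above both 0 hpa arrays, beside 18.2% of all probe sets, and in 1 member they lay below, beside 22.4%. None was called in limma, with a lowest adjusted p of 0.0734, beside 2% of all probe sets, and 13 had an unadjusted p below 0.05, beside 12.5%. Both subunits showed it: the small-subunit median was 0.32 with 23 of 24 genes above 0, and the large-subunit median was 0.26 with 39 of 40 above 0. The members share arrays and their intensities vary together, so these counts are not independent observations of a rise.

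The difference between 7 dpa and 6 hpa in control ventricles ran the same way. Its median was 0.22, with 66 members above 0, beside 44.1% of all probe sets, and 7 below, against a median of -0.04 over all probe sets. No member was called, with a lowest adjusted p of 0.123 in limma, beside 3.79% of all probe sets, and 6 had an unadjusted p below 0.05, beside 14.5%. In 45 members both 7 dpa arrays lay above both 6 hpa arrays, beside 21% of all probe sets, and in 3 below, beside 24.2%. This comparison shares its 7 dpa arrays with the one before.

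After TCDD the 7 dpa difference from 0 hpa had a lower median. The gap between the 2 medians was not tested, and the tests of single members are given with the interaction terms. The median was 0.14 (0.04 to 0.24 with 1 array left out), a 1.1-fold higher intensity, against -0.02 over all probe sets, with 52 members above 0, beside 47.3% of all probe sets, and 21 below. No member was called, with a lowest adjusted p of 0.14 in limma, beside 2.37% of all probe sets, and 3 had an unadjusted p below 0.05, beside 12.6%. In 25 members both 7 dpa arrays lay above both 0 hpa arrays, beside 20.9% of all probe sets, and in 4 below, beside 21.4%. From 6 hpa to 7 dpa after TCDD the median was 0.05, with 43 members above 0, beside 46.2% of all probe sets. The count of members called was 0, beside 5.68% of all probe sets, and 4 had an unadjusted p below 0.05, beside 22.4%. In 10 members both 7 dpa arrays lay above both 6 hpa arrays, beside 22.1% of all probe sets, and in 8 below, beside 24.3%. That median was -0.15 without TCDD 6 hpa replicate 1 and 0.28 without replicate 2.

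**Figure D2:**
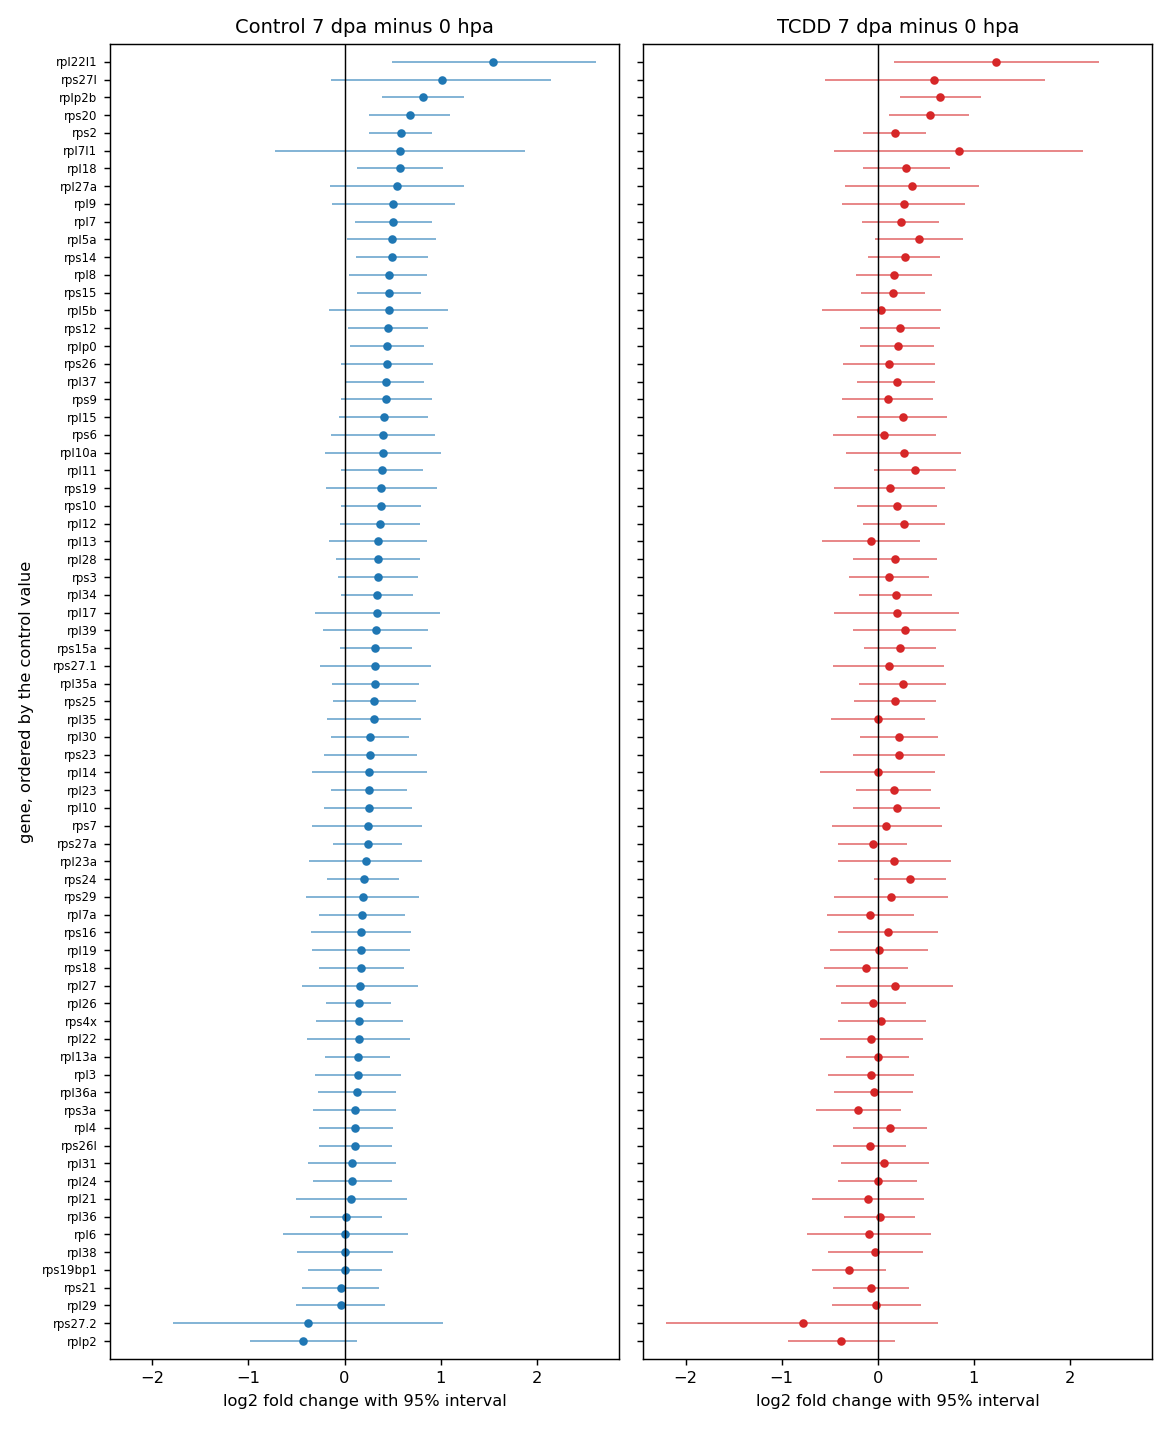
Log2 fold change of the members from 0 hpa to 7 dpa, in control and in TCDD ventricles. In controls 69 of the 73 members were above 0, and in 66 of the 73 the change was lower after TCDD than in controls. The highest value in each treatment is that of rpl22l1 (1.55 in controls and 1.23 after TCDD).

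TCDD against control was compared at each time. Before amputation the median member difference was -0.03, with 47 of 73 members below 0, beside 52.6% of all probe sets. It was -0.03 at 6 hpa, with 41 below 0, beside 44.9% of all probe sets. At 7 dpa it was -0.21, a fold of 0.864, against 0.01 over all probe sets, with 4 members above 0 and 69 below, beside 48.5% of all probe sets below 0. All 24 small-subunit genes and 39 of the 40 large-subunit genes were lower after TCDD at 7 dpa. The members share arrays and vary together. Their counts, here and in the next paragraphs, are therefore not independent observations of a difference. Relative to control 0 hpa, the array medians were 0.01 and 0.19 at TCDD 7 dpa and 0.24 and 0.31 at control 7 dpa. No member was called in any of the 3 comparisons in limma, where the adjusted p of all members was 1; the share of all probe sets called was 0.0258% at 0 hpa, 0.0129% at 6 hpa and 0.116% at 7 dpa. The number with an unadjusted p below 0.05 was 0 in each, beside 1.45%, 2.72% and 3.97% of all probe sets.

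At 7 dpa both TCDD arrays lay below both control arrays in 36 members, beside 11.3% of all probe sets, and above them in 1, beside 13.3%. Before amputation they lay below in 8 members and above in 3, beside 14.7% and 12.4% of all probe sets. At 6 hpa they lay below in 0 and above in 4, beside 9.19% and 11.1%. The median over members ranged from -0.30 to -0.10 when 1 array was left out. It was -0.10 without TCDD 7 dpa replicate 1 and -0.30 without replicate 2, and neither choice changed its sign. It was -0.10 after quantile normalization. The 95% interval of the TCDD difference at 7 dpa reached 0.45 on either side of the estimate for the median member, and for 69 of 73 the whole interval lay within a 2-fold change in either direction (1 on the log2 scale). The exceptions were rpl22l1, rpl7l1, rps27.2 and rps27l. A difference of 2-fold or more in most members was therefore outside the intervals of these data, whereas one of the size of the median was not detectable with 2 pools a group.

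The interaction terms ask whether the difference from 0 hpa was another one after TCDD than in controls. TCDD was given 1 day before surgery, and no unamputated hearts were collected at the later times. A changed response to amputation and a longer time since the dose therefore cannot be told apart. For the 7 dpa response the median over members was -0.17, with 66 of 73 below 0, beside 47% of all probe sets below 0, against a median of 0.02 over all of them. That median was -0.26 to -0.07 with 1 array left out and -0.11 after quantile normalization. Its low and high ends came without TCDD 7 dpa replicate 2 and replicate 1. For the 6 hpa response it was -0.01, with 40 below 0, beside 45.8% of all probe sets. No member was called in either, beside 0.00645% of all probe sets in each, and the number with an unadjusted p below 0.05 was 0 in both, beside 2.01% of all probe sets at 7 dpa and 1.14% at 6 hpa. These terms use the same 0 hpa arrays as the comparisons above and are not separate support for them.

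In a bulk sample a lower share of one cell type and less mRNA per cell cannot be told apart. The levels of cell type markers differed between the times, and the cell makeup itself was not measured. The summed linear intensity of 7 measured fibroblast and epicardial markers was 522 to 623 at control 0 hpa, 3970 to 4640 at control 7 dpa and 3150 to 3450 at TCDD 7 dpa. That of 14 leukocyte markers was 276 to 308 at control 0 hpa, 1950 to 3280 at control 7 dpa and 2360 to 2470 at TCDD 7 dpa, and 571 to 671 at TCDD 0 hpa. Such a sum is weighted to the brightest markers. At 7 dpa 9 of the 14 were lower after TCDD than in controls, beside 48.5% of all probe sets, and 5 were higher. Their log2 differences ran from -1.73 to 3.48, with a median of -0.81. At 0 hpa the median TCDD difference of the 14 was 0.45, with a range of -0.47 to 4.13. The 8 measured cardiomyocyte markers, the markers of the labelled tissue, summed to 27500 to 30100 at control 0 hpa, against 17700 to 18500 at control 7 dpa and 16700 to 20900 at TCDD 7 dpa.

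The 12 epidermal markers summed to 3160 to 6050 at control 7 dpa and to 10300 to 10400 at TCDD 7 dpa, against 1500 to 1730 at control 0 hpa. Of the epidermal markers 6 rose in limma from 0 hpa to 7 dpa after TCDD, where 2.37% of all probe sets were called. In controls 1, krt4, rose, beside 2% of all probe sets. Between the treatments at 7 dpa only icn2 of these markers was called, beside 0.116% of all probe sets. Some of these calls were lost when 1 array was left out. The 10 erythrocyte markers were highest at 6 hpa, at 15300 to 22100 in controls and 16500 to 21900 after TCDD, against 9020 to 10300 at control 0 hpa. The deposited values carry no detection calls, so no marker could be classed as absent. The part of these shifts in the ribosomal protein levels was not tested.

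Among the stalk genes, rplp0, which encodes the base of the stalk and is a common reference gene in PCR assays, had the highest log2 difference of all members at 6 hpa in both treatments. Its log2 intensity was 11.90 and 11.97 at control 0 hpa, 12.68 and 12.64 at 6 hpa, and 12.53 and 12.23 at 7 dpa. Under TCDD it stood at 11.86 and 12.05 at 0 hpa, 12.62 and 12.88 at 6 hpa, and 12.20 and 12.12 at 7 dpa. In both treatments the 6 hpa arrays were the highest and did not overlap with those of the other times. The 6 hpa difference was 0.72 ± 0.17 (SE, 1.65-fold) in controls, adjusted p = 0.132 in limma. It was 0.80 ± 0.17 (1.74-fold) after TCDD, adjusted p = 0.0545 in limma. By 7 dpa after TCDD it was 0.59 lower than at 6 hpa (log2 difference -0.59 ± 0.17, adjusted p = 0.0822 in limma).

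The 2 genes for the stalk protein P2 ran in opposite directions at 7 dpa. The level of rplp2b was 10.62 and 10.28 at control 0 hpa, 10.82 and 10.67 at 6 hpa, and 11.31 and 11.22 at 7 dpa. The TCDD arrays gave 10.52 and 10.28, then 10.60 and 10.78, then 10.91 and 11.20. Its 7 dpa arrays were the highest in each treatment. The difference from 0 hpa was 0.82 ± 0.19 (1.76-fold), adjusted p = 0.0734 in limma, in controls, the lowest adjusted p of any member in that comparison. It was 0.65 ± 0.19 (1.57-fold), adjusted p = 0.14 in limma, after TCDD.

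The level of rplp2 was 10.99 and 10.64 at control 0 hpa, 11.18 and 10.48 at 6 hpa, and 10.43 and 10.34 at 7 dpa. In TCDD ventricles it was 10.97 and 10.65, then 10.75 and 10.77, then 10.34 and 10.53. All 4 of the 7 dpa arrays lay below all 4 of the 0 hpa arrays, in a list where most members ran the other way. The 7 dpa difference was -0.43 ± 0.25 in controls, adjusted p = 0.599 in limma, and -0.38 ± 0.25 after TCDD, adjusted p = 0.672 in limma. Set against their difference at control 0 hpa, rplp2b minus rplp2 stood at 1.24 and 1.24 on the control 7 dpa arrays and at 0.93 and 1.03 on the TCDD 7 dpa arrays, against -0.09 to 0.55 on the remaining 8. This contrast between the genes was noticed in the data and carries no test.

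The gene with the largest 7 dpa difference was rpl22l1, the paralogue of rpl22. Its level was 8.28 and 8.72 at control 0 hpa, 8.94 and 8.62 at 6 hpa, and 9.98 and 10.14 at 7 dpa. The values after TCDD were 8.44 and 8.64 at 0 hpa, 7.18 and 8.91 at 6 hpa, and 9.52 and 10.02 at 7 dpa. The 4 arrays at 7 dpa were above the other 8, and TCDD 6 hpa replicate 1 was far below all others. The 7 dpa difference from 0 hpa was 1.55 ± 0.47 in controls (2.93-fold, 95% interval 0.49 to 2.62), adjusted p = 0.171 in limma. It was 1.23 ± 0.47 after TCDD (2.35-fold), adjusted p = 0.29 in limma.

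The rpl22l1 error is set by the gap between both TCDD 6 hpa arrays. Without replicate 1 of that group the same control difference of 1.55 had a standard error of 0.23, and the TCDD difference stayed at 1.23. Leaving out replicate 2 in its place gave the same values, since either choice removes the gap from the shared spread. The TCDD difference at 6 hpa against control was -0.74 ± 0.47 with both arrays, adjusted p = 1 in limma. It was -1.60 with only replicate 1 kept, the array described above as standing apart in signal and in RNA or cRNA length. Replicate 2, at 8.91, lay between the control 6 hpa arrays at 8.94 and 8.62. The rpl22 level was much steadier, at 10.73 and 10.89 at control 0 hpa and 11.02 and 10.90 at control 7 dpa, a difference of 0.15 ± 0.24 (adjusted p = 0.98 in limma). After TCDD rpl22 was 10.67 and 10.96 at 0 hpa and 10.57 and 10.92 at 7 dpa. Relative to control 0 hpa, rpl22l1 minus rpl22 stood at 1.26 to 1.55 on the 7 dpa arrays and at -0.87 to 0.66 on the remaining 8.

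The 3 genes for the small-subunit protein S27 differed in steadiness. The level of rps27.1 ranged from 10.31 to 11.11 over the 12 arrays. The level of rps27l, whose human counterpart is a p53 target, was 7.10 and 6.30 at control 0 hpa, 7.48 and 6.41 at 6 hpa, and 7.56 and 7.85 at 7 dpa. With TCDD its values were 7.31 and 7.15, then 5.81 and 6.63, then 7.18 and 8.47. For this gene the arrays of a group lay more than 1 apart at control 6 hpa and TCDD 7 dpa, and its 7 dpa difference was 1.01 ± 0.51 in controls, adjusted p = 0.503 in limma. Its largest difference, from TCDD 6 hpa to TCDD 7 dpa, was 1.60 ± 0.51, adjusted p = 0.11 in limma.

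The level of rps27.2 was 10.48 and 8.91 at control 0 hpa, 10.12 and 8.43 at 6 hpa, and 9.42 and 9.21 at 7 dpa. Under TCDD it stood at 10.24 and 9.18, then 9.01 and 8.88, then 8.81 and 9.05. Replicate 1 exceeded replicate 2 by more than 1 in 3 of the 6 groups, a spread larger than any difference between times. Its standard error was 0.62, the largest of any member.

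**Figure D3:**
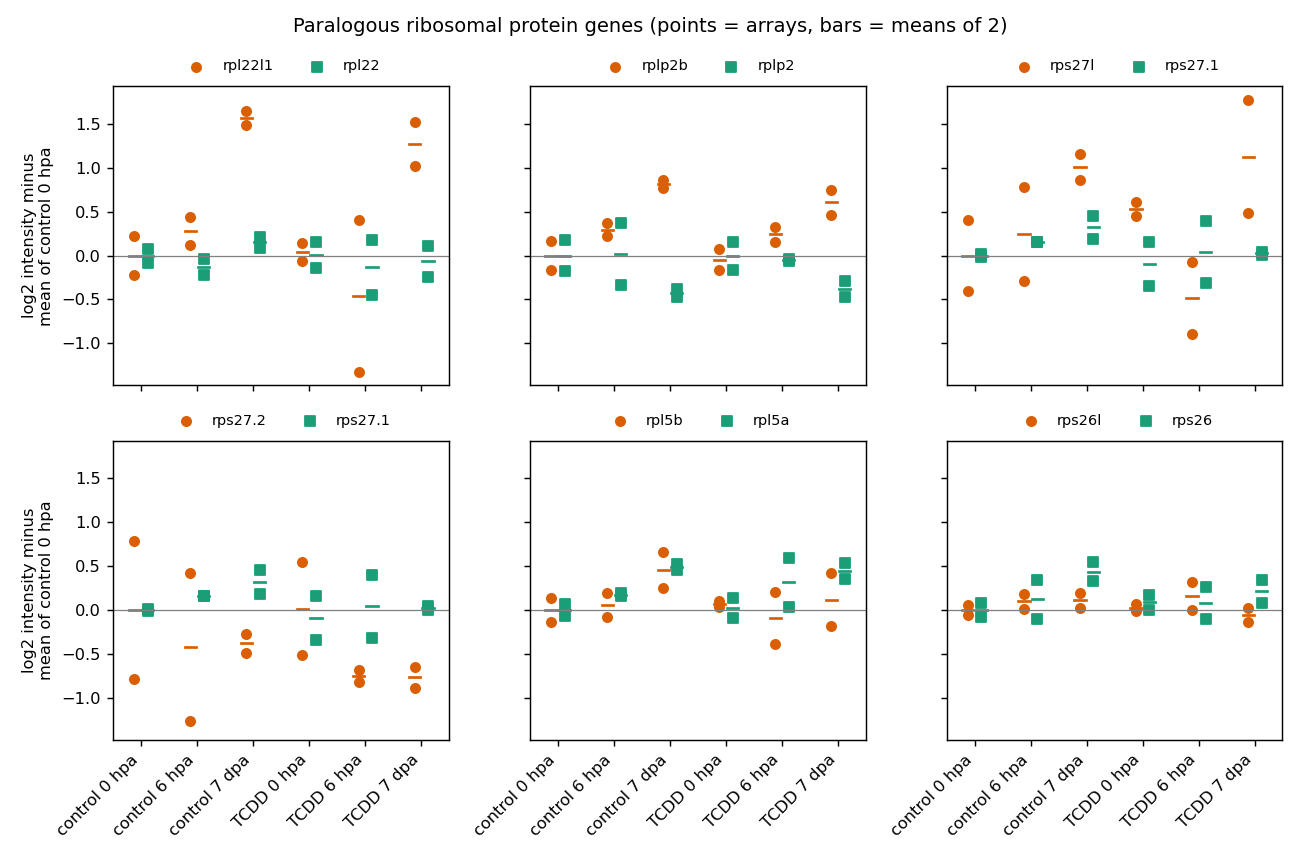
Log2 intensity minus the control 0 hpa mean for 6 pairs of paralogous members by group; points are arrays and bars are means of 2 arrays. At 7 dpa rpl22l1 and rplp2b stand above their partners in both treatments, while rps27.2 is spread as widely within groups as between them.

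Among the other paralogues, rpl5a and rpl5b, for the 5S-binding protein, differed less from each other. The rpl5a level was 10.27 and 10.14 at control 0 hpa and 10.73 and 10.66 at control 7 dpa, a difference of 0.49 ± 0.20 (95% interval 0.03 to 0.95, adjusted p = 0.363 in limma). The rpl5b level was 10.13 and 9.86 at control 0 hpa and 10.25 and 10.65 at 7 dpa, with a 95% interval of the difference from -0.16 to 1.08. The mRNA level of rpl11, whose protein binds the 5S rRNA with Rpl5, was 11.15 and 11.42 at control 0 hpa, 11.67 and 11.65 at 6 hpa, and 11.71 and 11.63 at 7 dpa. The arrays of both later times lay above those at 0 hpa, but rpl11 was not called at either time. The rpl7l1 level, between 5.12 and 6.81, was among the dimmest of the list and had a standard error of 0.57. The rps26 and rps26l levels stayed within 10.23 to 10.87 and 10.61 to 11.06.

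Among the small-subunit genes rps2, which encodes a protein at the mRNA entry site, and rps20 had the clearest separation at control 7 dpa. The level of rps2 was 11.94 and 11.93 at control 0 hpa, 12.28 and 12.22 at 6 hpa, and 12.48 and 12.56 at 7 dpa. The TCDD arrays gave 12.05 and 12.13, then 12.24 and 12.43, then 12.23 and 12.30. In controls the 3 times did not overlap and stood in the order 0 hpa, 6 hpa, 7 dpa, and after TCDD the 6 hpa and 7 dpa arrays overlapped. The 7 dpa difference was 0.59 ± 0.14 (1.5-fold), adjusted p = 0.0858 in limma, in controls and 0.18 ± 0.14, adjusted p = 0.789 in limma, after TCDD. The interaction for rps2 was -0.41 ± 0.20, adjusted p = 1 in limma, so the treatments were not shown to differ.

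The rps20 level was 11.35 and 11.52 at control 0 hpa, 11.76 and 11.88 at 6 hpa, and 12.23 and 12.01 at 7 dpa. In TCDD ventricles it was 11.17 and 11.46, then 11.65 and 12, then 11.85 and 11.86. In both treatments all arrays after amputation were above those at 0 hpa. Its 7 dpa difference was 0.68 ± 0.18 (1.6-fold), adjusted p = 0.119 in limma, in controls and 0.54 (1.45-fold), adjusted p = 0.229 in limma, after TCDD.

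The rps9 level in controls was 11.06 and 10.94 at 0 hpa, 10.79 and 10.65 at 6 hpa, and 11.36 and 11.51 at 7 dpa. No member was called from control 0 hpa to 6 hpa, so the lower rps9 level at 6 hpa was not shown to be a change. The difference between 7 dpa and 6 hpa was 0.71 ± 0.21 (1.64-fold), adjusted p = 0.123 in limma, and the control arrays of the 3 times did not overlap. After TCDD rps9 was 10.87 and 11.06, then 10.32 and 10.94, then 11.05 and 11.09. Of the genes mutated in human Diamond-Blackfan anaemia, rps19 differed at control 7 dpa by a 95% interval of -0.19 to 0.96 and rpl35a by one of -0.13 to 0.78. The gene rps14, which encodes a protein of the small-subunit platform, had 11.35 and 11.41 at control 0 hpa and 11.87 on both control 7 dpa arrays (1.41-fold, adjusted p = 0.219 in limma).

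The kinase target rps6, which is phosphorylated downstream of mTOR, was 10.28 and 10.35 at control 0 hpa and 10.46 and 10.97 at control 7 dpa, with a 95% interval of the difference from -0.14 to 0.94. The array measures its mRNA and not its phosphorylation. The gene rps3 was 11.02 and 10.66 at control 0 hpa and 11.22 and 11.15 at 7 dpa. The genes rps27a, which encodes a fusion with ubiquitin, and rps29 differed at control 7 dpa by 0.24 and 0.19, with adjusted p of 0.7 and 0.968 in limma.

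Of the large-subunit genes, rpl13 and rpl35 had the lowest TCDD differences at 7 dpa. The rpl13 level was 11.03 and 11.38 at control 7 dpa and 10.53 and 10.97 at TCDD 7 dpa, and the arrays did not overlap. The difference was -0.46 ± 0.23 (95% interval -0.97 to 0.06), adjusted p = 1 in limma. The rpl35 level was 11.21 and 11.55 at control 7 dpa and 10.74 and 11.20 at TCDD 7 dpa, a difference of -0.41 ± 0.22. In both genes replicate 1 was the lower array in each treatment.

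The large-subunit gene rpl3, for a core protein near the peptidyl transferase centre, was within 11.11 to 11.77 on all 12 arrays. Its second probe set, at a mean of 10.13, had a control 7 dpa difference of 0.14. Of the 5 further probe sets of rps19bp1, rpl3, rpl21 and rps27.1, none was called in any comparison in limma, with a lowest adjusted p of 0.263. Those 5 were not used for any count above.

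Members often used as reference genes differed in steadiness. The SD of rpl13a over the 12 arrays was 0.10, the lowest of the list, with levels from 11.20 to 11.53. It was 0.11 for rpl26, 0.15 for rps18, and 0.19 for rpl8, and the control 7 dpa difference of rpl8 had a 95% interval of 0.05 to 0.86. The stalk gene rplp0, described above, had a 1.65-fold difference at control 6 hpa. The largest SDs belonged to rpl22l1 at 0.85, rps27l at 0.73, rps27.2 at 0.64 and rpl7l1 at 0.61.

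Most members varied together over the arrays, and a few did not. The correlation of a member with the mean of the other members over the 12 arrays, given as a description since it holds array quality and depth of signal too, was lowest for rplp2 at -0.38, rps19bp1 at -0.28, rpl36 at -0.16, rps27.2 at -0.12 and rplp0 at 0.19. Outside the list, the genes closest to the mean of the members over the 12 arrays included eif3i at a Pearson correlation of 0.913, pdcd6 at 0.906, rpa2 at 0.903 and ndnl2 at 0.882. Then came eef1g at 0.881, ppdpfb at 0.866, nccrp1 at 0.861 and eif3ha at 0.843, among 8720 genes compared. Genes with clone-type symbols, such as those starting with zgc: or si:, are in that number but were passed over in this order. Of these 8, eif3i, eif3ha and eef1g encode initiation and elongation factors.

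The other lists of the translation machinery had medians below that of the members at control 7 dpa. The median control 7 dpa difference was 0.18 for 13 elongation factors, 0.03 for 36 initiation factors, 0.02 for 89 ribosome assembly genes, 0.28 for 7 ribosome-associated genes and -0.12 for 16 genes around mTOR and Myc. No gene of these lists was called against 0 hpa in controls at either time, beside 0.477% of all probe sets at 6 hpa and 2% at 7 dpa. The elongation list included eef1g, at 10.38 on average at control 0 hpa and 11.07 at 7 dpa (0.69 ± 0.22, adjusted p = 0.191 in limma), and rack1, a 40S-bound scaffold of the ribosome-associated list, had 11.47 and 11.85 on average.

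Single genes of these lists passed elsewhere. From TCDD 6 hpa to 7 dpa it was 1 of 13 elongation factors and 2 of 16 genes around mTOR and Myc, beside 5.68% of all probe sets. From control 6 hpa to 7 dpa it was 1 of those 16 and 1 of 89 ribosome assembly genes, beside 3.79%. From TCDD 0 hpa to 6 hpa it was 1 of the 16, beside 1.88%. The remaining lists had none in these comparisons. The hypusine-bearing translation factor gene eif5a2 rose from TCDD 6 hpa to TCDD 7 dpa by 3.17 ± 0.54 (adjusted p = 0.012 in limma). Its TCDD levels were 4.50 and 6.46 at 6 hpa and 8.85 and 8.45 at 7 dpa, and the call was lost without TCDD 7 dpa replicate 1 (adjusted p = 0.106 in limma). In controls its 7 dpa difference from 0 hpa was 1.78 ± 0.54 (adjusted p = 0.173 in limma). The gene sesn3, whose mammalian counterpart restrains mTORC1, fell by 2.63 from 0 hpa to 6 hpa after TCDD (SE 0.35, adjusted p = 0.0212 in limma), from 7.12 on both arrays to 4.57 and 4.41. That call was lost without either TCDD 0 hpa array, where no probe set of the whole table was called. From TCDD 6 hpa to 7 dpa it rose by 2.08 (adjusted p = 0.0116 in limma), a call lost without TCDD 7 dpa replicate 1. In controls it was 2.01 lower at 6 hpa (log2 difference -2.01 ± 0.35, adjusted p = 0.0527 in limma) and rose by 2.27 from 6 hpa to 7 dpa (adjusted p = 0.00937 in limma), which was lost without control 6 hpa replicate 1 or control 7 dpa replicate 1. The mTORC1 target gene eif4ebp2 rose by 1.67 from TCDD 6 hpa, at 7.56 and 8.24, to TCDD 7 dpa, at 9.75 and 9.39 (adjusted p = 0.0149 in limma), a call lost without replicate 1 of either group. The gene rcl1, an 18S rRNA processing gene, fell by 2.26 from control 6 hpa to 7 dpa (adjusted p = 0.0431 in limma), and that call held in 3 of the 12 fits that leave out 1 array.

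Nearly all mitochondrial ribosomal proteins, which form the separate ribosomes of mitochondria, lay below 0 hpa at both times. Most cytosolic ones lay above it at 7 dpa, where 45.6% of all probe sets did in controls and 47.3% after TCDD. At 6 hpa 46 of the 73 cytosolic genes did in controls and 41 after TCDD, beside 54.2% and 57.7% of all probe sets. Of 59 mitochondrial genes, 59 lay below 0 hpa at control 6 hpa, with a median of -0.88, and 58 at control 7 dpa, with a median of -0.76. After TCDD it was 59 at 6 hpa, with a median of -1.13, and 57 at 7 dpa, with a median of -0.72. Relative to control 0 hpa, the arrays of the list stood at -0.46 and 0.20 at TCDD 0 hpa, -1.65 and -0.77 at TCDD 6 hpa and -0.87 and -0.80 at TCDD 7 dpa. The TCDD 6 hpa median was -0.63 without replicate 1 of that group and -1.58 without replicate 2. The TCDD 7 dpa median was -1.06 without TCDD 0 hpa replicate 1 and -0.40 without replicate 2. In controls the arrays stood at -0.76 and -0.90 at 6 hpa and at -0.79 and -0.73 at 7 dpa, and with 1 array left out their medians were -1.02 to -0.72 and -0.91 to -0.59. Of single genes mrps31 fell by 1.1 at control 7 dpa (adjusted p = 0.0382 in limma), where 2% of all probe sets were called. At TCDD 7 dpa, where 2.37% were called, it fell by 1.33 (adjusted p = 0.016 in limma). At TCDD 6 hpa, where 1.88% were called, mrps31, mrpl35 and mrps23 fell by 1.41, 1.5 and 1. Their adjusted p was 0.0232, 0.0402 and 0.0306 in limma. From TCDD 6 hpa to TCDD 7 dpa, where 5.68% were called, mrps23 rose by 0.82 (adjusted p = 0.0254 in limma). None of these calls held in all 12 fits that leave out 1 array: at TCDD 6 hpa they held in 7, 1 and 7, and for mrps31 in 4 at control 7 dpa and 8 at TCDD 7 dpa. All 3 at TCDD 6 hpa were lost without either TCDD 0 hpa array and without TCDD 6 hpa replicate 1. The cardiomyocyte marker sum was also lower at those times, and its part in this was not tested.

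**Figure D4:**
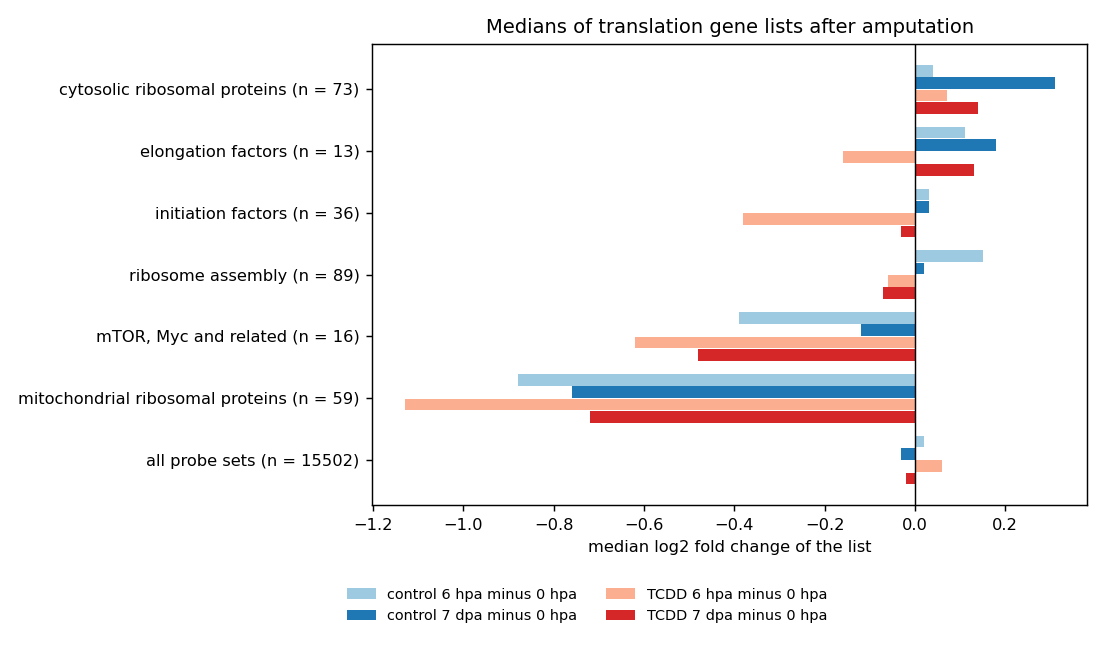
Median log2 fold change from 0 hpa of translation gene lists at 6 hpa and 7 dpa, for control and TCDD ventricles. The 7 ribosome-associated genes, with a control 7 dpa median of 0.28, are not drawn. The cytosolic ribosomal proteins have the highest control 7 dpa median, 0.31, and the mitochondrial ribosomal proteins the lowest, -0.76, with all probe sets at -0.03.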

How the data were processed

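RNA from the ventricle apex of pools of 10 hearts was hybridised to 12 Affymetrix zebrafish arrays. The authors deposited 1 intensity value per probe set and array, on a linear scale as the range of values shows. RMA is the method that the submitters' processing notes name, with its software, version and settings not given in the sources used here. The deposited arrays differ in distribution (medians of 3.26 to 3.53 and 95th percentiles of 6.58 to 7.86 on the log2 scale), and whether all 12 went through a single RMA run is not known. The authors' 5 comparison tables were not used here, since their headers do not name the arrays compared.

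Log2 was taken of each intensity. The table had 15617 probe sets, and the 115 that are Affymetrix controls were dropped. Platform annotation named 10795 of the 15502 remaining probe sets with 1 symbol and 135 with several, and left 4572 unnamed. A model with 6 group means was fitted to all 12 arrays in limma 3.58.1 (R 4.3.3), with 6 residual and 2.87 prior degrees of freedom, and 11 comparisons were drawn. Benjamini-Hochberg adjustment ran over all probe sets of a comparison, and a gene was called below 0.05. With 2 arrays against 2 the smallest p of an exact permutation test is 0.333, and none was run. Precision is limited by the number of arrays; the median standard error was 0.199 for members and 0.243 for all probe sets. The fit was tested on simulated data.

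The members, gene lists and tests were chosen with earlier results of these data known. Genes named were drawn from those called, or else the 3 highest and 3 lowest members of a comparison, a fixed set of members, all paralogue pairs and called genes of the other lists. Not every gene of these classes is named, and most called cell type markers are not. The 8 genes correlating best with the members' mean, clone-type symbols passed over, were also named. A few others were named after their values were seen. No sequences are shown.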

Additional observations from a re-analysis of the deposited data

Results flagged for a closer look

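The 7 dpa mean of rps26l lay above the 0 hpa mean in controls (10.85 against 10.74) and below it after TCDD (10.69 against 10.77). In both treatments the arrays of the 2 times overlapped, so no movement was shown in either. Relative to the mean of its own 0 hpa group, the control 7 dpa arrays stood at 0.03 and 0.19 and the TCDD 7 dpa arrays at -0.17 and at a value below 0 that rounds to 0. The interaction was -0.19 with an adjusted p of 1 in limma, so the difference did not pass the test. With 2 arrays a group, single arrays could not be examined for standing apart within a group.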

How the results depend on the processing

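The alternatives were centring each array on its median, quantile normalization, leaving out the 25% dimmest probe sets (which kept all 73 members), eBayes with trend and robust settings, the replicate number as a block, the mean of a gene's probe sets, and leaving out each array in turn; 2 others, leaving out rps19bp1 with rpl7l1 or with the paralogues, were added after the data were seen. Of the recomputed member medians 210 moved by less than the spread between replicates (an SD of 0.133) and 10 by more. Many of the 210 could not move, so that count does not measure steadiness. The trend and robust settings, the block and the filter on dim probe sets leave the members' fold changes as they are. So does leaving out an array of a group outside the comparison. Of the recomputed call counts 206 stayed at 0 and 14 were above it.

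Centring moved the TCDD 6 hpa median to -0.09 and quantile normalization moved it to 0.21. After quantile normalization 3 members were called at control 7 dpa against 0 hpa (rpl22l1, rps20 and rpl5a), beside 499 of all 15502 probe sets. At control 7 dpa against 6 hpa it was 2 members (rpl22l1 and rps9), beside 781 probe sets. It was 2 members at TCDD 6 hpa against 0 hpa (rpl7 and rplp0), beside 514, and 1 at TCDD 7 dpa against 0 hpa (rpl22l1), beside 538. At TCDD 7 dpa against 6 hpa it was 2 members (rpl22l1 higher, rplp0 lower), beside 1167 probe sets. With 1 array left out the counts were 0 to 1, 0 to 2, 0 to 4, 0 to 1 and 0 to 10 in these 5 comparisons and 0 to 1 for TCDD against control at 6 hpa. The highest of these came without TCDD 6 hpa replicate 1 or 2, the fits in which the counts over all probe sets were also highest. With 1 array left out the medians ranged from -0.13 to 0.23 for TCDD 6 hpa against 0 hpa, -0.15 to 0.28 for TCDD 7 dpa against 6 hpa, -0.23 to 0.16 for TCDD against control at 6 hpa and -0.18 to 0.23 for the TCDD change of the 6 hpa response; the control 7 dpa median stayed at 0.24 to 0.31. The lone array of a group was assumed to vary like the others.

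The labels do not say that a replicate number marks a shared batch. Differences between replicate 1 and 2 correlated at -0.38 to 0.56 between groups, above 0.1 in 8 of 15 pairs, and the actin 3' minus 5' signal was higher in replicate 1 in all 6 groups, so pairing was not established and a shared effect is possible. With the replicate number as a block 0 members were called in every comparison. The control 7 dpa median stayed at 0.31, which the block could not move because every group holds both replicate numbers. The block lowered the probe sets called for TCDD against control at 7 dpa from 18 to 10.

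Over all probe sets the counts called depended on the setting. At control 6 hpa 74 were called, against 22 centred and 156 after quantile normalization; at control 7 dpa 310, against 499 after quantile normalization; at TCDD 6 hpa 291, against 131 and 514. For TCDD against control at 7 dpa it was 18, against 58 with trend and robust settings. With 1 array left out the counts spanned 2 to 309, 54 to 627, 0 to 2424 and 3 to 98 in these comparisons, 220 to 947 for control 7 dpa against 6 hpa, 101 to 683 for TCDD 7 dpa against 0 hpa, 251 to 3002 for TCDD 7 dpa against 6 hpa, 2 to 762 for TCDD against control at 6 hpa, and 0 to 120 and 0 to 31 for the TCDD change of the 6 hpa and 7 dpa responses. For the TCDD change of the 7 dpa response 1 was called, against 5 with trend and robust settings. The cause was not tested.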
